A study of Mus musculus with 10 samples.

Results

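The transforming growth factor beta (TGF-β) pathway was followed through 46 mouse genes, listed by name, of 21938 protein-coding genes on chromosomes 1 to 19, X and Y. They encode 14 ligands, 13 receptors and coreceptors, 8 Smads, 8 antagonists and 3 proteins that process or store ligands. For each gene, accessible sites were taken from a pooled ATAC-seq list. A site counted for the promoter when it lay within 1 kb of an annotated start site, for the body when it overlapped the gene, and for the surroundings when it lay within 50 kb of the gene. Of 153924 sites listed, 71 lay at start sites of these genes, 396 in their bodies and 854 within 50 kb.

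ATAC-seq reads out where the transposase Tn5 can insert into chromatin. The cells were immortalized mouse embryo fibroblasts (iMEF), per the study all of 1 clone, NG3, whose endogenous Ash2l had lost exon 4 through the broadly expressed CAGG-Cre-ER transgene. Every group, the controls included, lived on a lentiviral fusion of FKBP12F36V with human ASH2L, a shared component of the COMPASS enzymes for histone H3 lysine 4 methylation. The 10 libraries were 2 each of untreated cells, labelled WT although they carry the fusion, and of cells given dTAG for 30 min, 4 h, 8 h or 24 h. The PROTAC dTAG-13 ties the fusion to the ligase subunit Cereblon and so has it degraded, and the controls received ethanol per the methods. The list joins the sites of all groups and holds only positions. Differences between groups were therefore not analysed here, the depth behind a site is unknown, and no value carries a replicate error.

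TGF-β ligands are secreted dimers, many of them held inactive in the matrix, which bring type II and type I receptor kinases together. The TGF-β and activin branch phosphorylates Smad2 and Smad3 and the bone morphogenetic protein (BMP) branch Smad1, Smad5 and Smad9. These enter the nucleus with Smad4, while Smad6, Smad7, the Smurf ubiquitin ligases, Ski proteins and extracellular ligand traps dampen the signal. In fibroblasts the pathway is best known for inducing matrix genes.

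Sequence is shown for 6 of the 7 member sites that held the letters of a palindromic Smad-binding element or a BMP-responsive element. Both elements are named for the pathway, and binding at these sites was not tested. The palindrome is GTCTAGAC, which reads the same on both strands. The BMP-responsive element was searched on both strands as GGCGCC and GTCT with any 5 bases between them. The stretches are from build GRCm38 (mm10), written 5′ to 3′ on the strand of the gene, with the match in capitals. Grem1 holds the element in reverse orientation.
Smad6, chr9:64022040-64022108, minus strand: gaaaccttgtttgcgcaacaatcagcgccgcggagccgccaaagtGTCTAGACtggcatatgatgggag
Smad3, chr9:63652001-63652098, minus strand: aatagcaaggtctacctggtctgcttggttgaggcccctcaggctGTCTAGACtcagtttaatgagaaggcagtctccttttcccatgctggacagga
Eng, chr2:32653485-32653582, plus strand: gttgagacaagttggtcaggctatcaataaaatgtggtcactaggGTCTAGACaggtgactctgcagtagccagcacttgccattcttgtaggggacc
Bmpr1b, chr3:141857269-141857366, minus strand: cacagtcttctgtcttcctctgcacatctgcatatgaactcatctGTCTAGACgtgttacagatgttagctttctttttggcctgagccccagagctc
Skil, chr3:31094514-31094618, plus strand: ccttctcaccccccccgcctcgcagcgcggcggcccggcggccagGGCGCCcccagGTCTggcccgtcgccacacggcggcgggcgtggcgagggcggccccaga
Grem1, chr2:113757684-113757788, minus strand: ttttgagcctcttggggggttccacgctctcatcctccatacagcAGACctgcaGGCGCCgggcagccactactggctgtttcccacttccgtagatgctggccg

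The match of Smad6, an inhibitory Smad, spanned the outermost 5′ end of the gene, its first base lying 4 bp upstream. The palindromes of Smad3, Eng and Bmpr1b lay in introns, 105941, 6935 and 312104 bp downstream of the 5′ ends. The BMP-responsive letters lay 499 bp upstream of the 5′ end of Skil, which encodes a Ski-like Smad repressor, and 903 bp downstream of that of Grem1, a secreted BMP trap, in its intron.

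Start regions differed between members in how many CpG dinucleotides they held. RefSeq promoters of the same build were matched for 32 of the 46 genes. The 150 bases upstream of the start are given for 3 genes with a CpG island within 1 kb of a start site and then for 3 without, each CpG in capitals. Islands were CpG-rich segments computed from the genome.
Tgfb1, chr7:25686852-25687001, plus strand: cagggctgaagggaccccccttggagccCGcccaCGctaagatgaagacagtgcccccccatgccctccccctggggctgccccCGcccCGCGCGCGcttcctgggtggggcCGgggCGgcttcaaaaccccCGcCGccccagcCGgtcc
Tgfbr1, chr4:47353072-47353221, plus strand: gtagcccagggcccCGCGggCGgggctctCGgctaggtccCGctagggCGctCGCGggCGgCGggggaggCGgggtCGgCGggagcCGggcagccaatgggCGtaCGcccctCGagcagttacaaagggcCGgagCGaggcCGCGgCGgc
Smad3, chr9:63757995-63758144, minus strand: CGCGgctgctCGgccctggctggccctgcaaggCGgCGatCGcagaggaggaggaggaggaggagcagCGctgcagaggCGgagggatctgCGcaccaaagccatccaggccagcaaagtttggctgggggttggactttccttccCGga
Inhba, chr13:16011701-16011850, plus strand: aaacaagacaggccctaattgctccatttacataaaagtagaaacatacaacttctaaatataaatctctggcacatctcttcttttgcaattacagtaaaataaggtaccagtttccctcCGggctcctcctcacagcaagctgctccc
Bmp5, chr9:75775215-75775364, plus strand: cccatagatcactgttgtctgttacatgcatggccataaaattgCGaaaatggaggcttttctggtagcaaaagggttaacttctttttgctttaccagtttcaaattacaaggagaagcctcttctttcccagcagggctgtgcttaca
Eng, chr2:32646445-32646594, plus strand: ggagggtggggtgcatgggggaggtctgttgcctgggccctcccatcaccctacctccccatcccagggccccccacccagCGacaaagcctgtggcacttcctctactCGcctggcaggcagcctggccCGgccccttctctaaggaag

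These stretches held 12 CpGs at Tgfb1, 22 at Tgfbr1 and 10 at Smad3, against 1 at Inhba, 1 at Bmp5 and 3 at Eng. An accessible site covered the starts shown except that of Eng, which encodes the coreceptor endoglin and had no site within 1 kb of it. Tgfbr1 has a further RefSeq start, not shown, with 0 CpGs in its 150 upstream bases and 0 sites within 1 kb.

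The labelled cell type was compared with marker genes, beside the 70.8% of all coding genes that had a site within 1 kb of a start site. Such a promoter site was present at 13 of 14 fibroblast genes, Lum being without, and at 1 of 5 hepatocyte and muscle genes (Afp), without Alb, Myod1, Myog and Myh6. Epithelial genes had one at 4 of 6, without Krt5 and Krt18, endothelial genes at 4 of 5, without Tie1, and neural genes at 5 of 5. The epithelial and endothelial counts were near the share of all coding genes, and presence of a site did not separate these types from fibroblasts. The 153682 sites on chromosomes had a median width of 619 bp.

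Every member had a site within 1 kb of a start site, 46 of 46, whereas 70.8% of all coding genes did. Of the members, 41 (89.1%) had a CpG island there, against 58% of coding genes. Coding genes with an island had a promoter site in 95.8% of cases and those without in 36.3%. Thus the 41 members with an island, all with a site, were near their background, and the 5 members without an island had a site too. These were Bmp5, Gdf5 and Inhba among the ligands, the type I receptor Acvrl1 and the coreceptor Eng. At least 2 promoter sites were found at 19 of 46 members, against 21.7% of coding genes. Members were longer genes, and among genes of at least 50 kb the counts were 12 of 23 members and 2040 of 5007 coding genes. The median width of the widest promoter site was 1731 bp (488 to 3180 bp), compared with 1412 bp over coding genes that had one, and 34 members lay above the latter value. Among genes of at least 50 kb the medians were 1712 bp for members and 1536 bp for coding genes. Widths were not matched for islands.

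A site within 1 kb is a loose criterion. Of 173 annotated start sites of the members, 122 (70.5%) had a site within 1 kb, against 60.6% for coding genes, and 104 (60.1%) were covered by one, against 51%. At least 1 start was covered in 42 members (91.3%), compared with 65% of coding genes. The others were Gdf5, Inha, Eng and Ski. The outermost 5′ end had a site within 1 kb in 44 members (95.7%), against 66.2%, and the exceptions were Bmp4 and Eng.

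**Figure D1:**
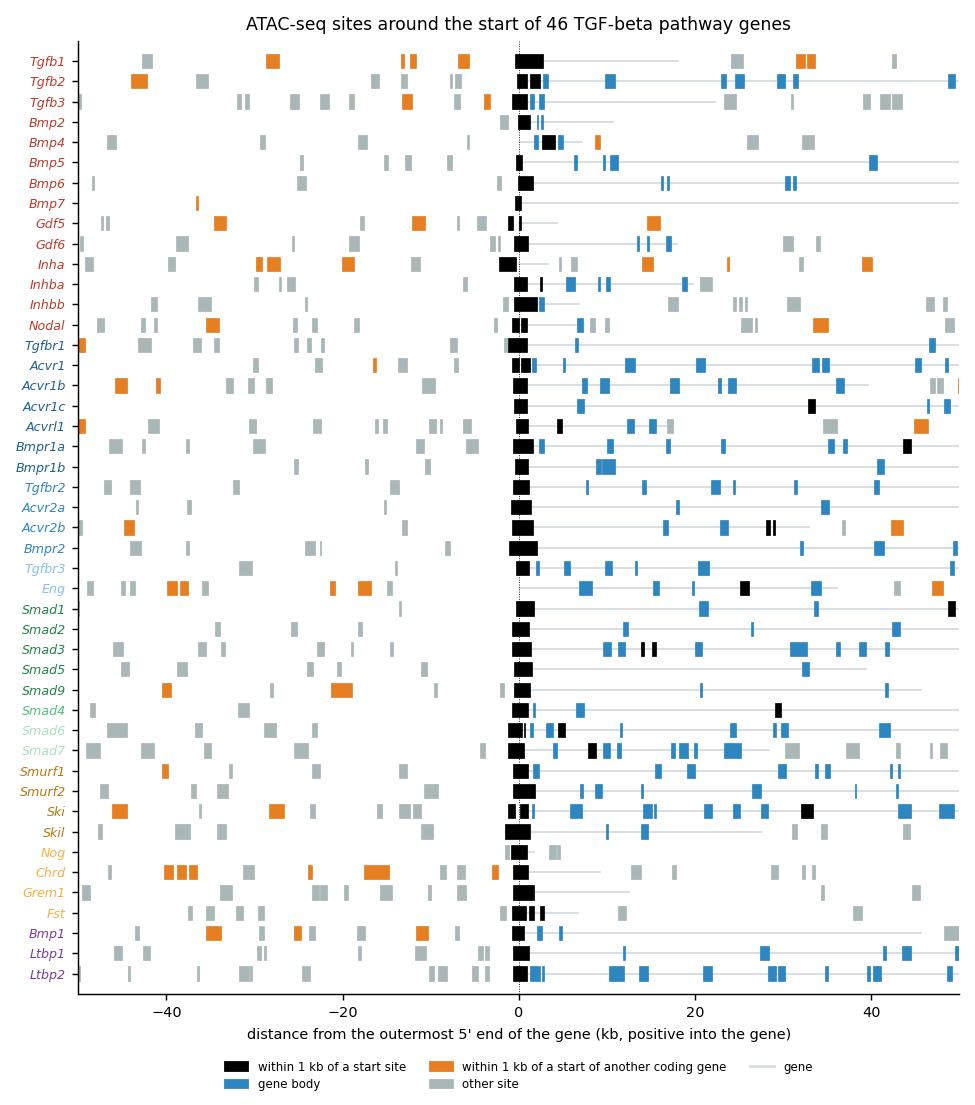
Accessible sites within 50 kb either side of the outermost 5′ end of each of the 46 genes (x axis in kb, positive into the gene), 1 row a gene, ordered and coloured by role. Black bars are sites at most 1 kb from a start of the gene itself, blue bars other sites in its body, orange bars sites within 1 kb of a start of another coding gene and grey bars the rest, and all rows but Bmp4 and Eng have a black bar at or near 0.

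Among the ligands the widest promoter site ranged from 488 to 3177 bp, the broadest span of any role, with a median of 1441 bp. Tgfb1, the ligand best known from fibroblast activation, had a single site of 3177 bp (chr7:25686534-25689710), the second widest of all members, which covered 4 of its 5 start sites. Tgfb2 had sites of 1139 and 1162 bp and Tgfb3 a single site of 1781 bp. In the activin and inhibin group, Inhbb had 2616 bp, Inhba 1438 bp plus a second site of 276 bp at a start 2405 bp downstream, and Inha 1953 bp. The Inha site ended 276 bp upstream of the gene and lay within 1 kb of a start of Obsl1, so its assignment to Inha is uncertain. Inha was also the member with no site in its body.

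The BMP and growth differentiation factor ligands reached lower widths. Bmp6 had 1712 bp, Gdf6 1545 bp, Bmp4 1444 bp and Bmp2 1365 bp. Bmp7, which is needed for kidney and eye development, had 664 bp, Bmp5 619 bp and the left-right determinant Nodal 791 and 708 bp. Gdf5, a joint-forming ligand, had the narrowest maximum of all members, with a site of 488 bp (chr2:155946079-155946566) upstream and another of 249 bp (chr2:155945103-155945351), neither of which covered the start. The Bmp4 site lay 2607 bp into the gene at a downstream start, and the nearest site to the outermost 5′ end was 1669 bp away.

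Receptors had promoter sites of 1581 bp at the median. Type II receptors, which bind ligand and phosphorylate the type I receptor, had 1812 bp at Tgfbr2, 2198 bp at Acvr2a, 2389 bp at Acvr2b and 3180 bp at Bmpr2 (chr1:59762291-59765470), the widest of all members. All 4 lay above the coding gene median. Among type I receptors, Bmpr1a had 2259 bp, Tgfbr1 2192 bp, Acvr1b 1581 bp, Acvr1c 1527 bp, Bmpr1b 1506 bp and Acvrl1 1406 bp. At Acvr1 the signal was divided into sites of 834 and 1026 bp, which also lay within 1 kb of a start of Upp2.

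The coreceptors, which present ligand to the kinases, had narrower sites. Tgfbr3, also called betaglycan, had 1402 bp. At Eng the promoter site of 983 bp lay 25129 bp into the gene near a downstream start, and the nearest site to the outermost 5′ end was 6856 bp away. Acvrl1 and endoglin act together in endothelial cells, and among these fibroblast sites Acvrl1 was covered at 6 of its 10 starts while none of the 5 starts of Eng was covered.

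**Figure D2:**
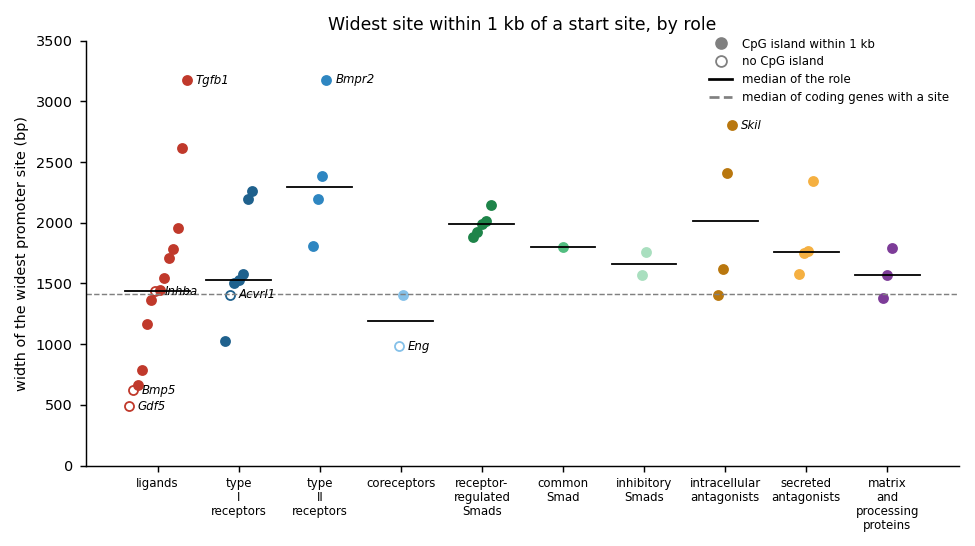
Width in bp of the widest site within 1 kb of a start site for each gene (points), grouped by role, with the median of the role (black bar) and of coding genes with such a site (dashed, 1412 bp). Filled points have a CpG island within 1 kb, and the Smads and secreted antagonists all lie above the dashed line while ligands extend from 488 to 3177 bp.

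The Smads lay between 1570 and 2149 bp. The receptor-regulated Smads had 2149 bp at Smad3, 2014 bp at Smad1, 1993 bp at Smad5, 1924 bp at Smad2 and 1885 bp at Smad9. The common partner Smad4 had 1797 bp. The inhibitory Smads had 1759 bp at Smad7 and 1570 bp at Smad6. All 8 Smads had an island and lay above the coding gene median.

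Antagonists inside the cell had 2804 bp at Skil (chr3:31093499-31096302), 2407 bp at Smurf2, and 1616 bp at Smurf1. Around the 5′ end of Ski, a repressor of Smad complexes, 2 sites of 908 and 839 bp lay 106 bp inside and 439 bp outside the gene and left the start itself uncovered. Its widest counted site, 1408 bp, lay 31994 bp into the gene, covered no start and overlapped no island. Secreted antagonists were similar in width, with 2344 bp at Grem1, 1766 bp at Nog, 1750 bp at Chrd and 1576 bp at Fst. The Chrd site was shared with the start of Thpo. Among the matrix and processing proteins, the latency proteins Ltbp1 and Ltbp2 had 1796 and 1571 bp, and the procollagen protease Bmp1 had 1378 bp.

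Some of the promoter sites lay far inside the gene. Of the 71, 20 began 2000 bp or more downstream of the outermost 5′ end, at alternative starts of 17 members. Their median width was 779 bp (276 to 1444 bp), against 1581 bp for the other 51. Only the Bmp4 site among the 20 overlapped an island, compared with 45 of the 51. A start was covered by 10 of the 20. Examples were sites of 1267 bp at Smurf1, 66646 bp downstream, of 1082 bp at Ltbp1, 172579 bp downstream, and of 794 bp at Bmpr1b, 237402 bp downstream. The counts of such sites were not made for all coding genes, so they allow no comparison. Which transcripts are made in these cells was not measured by the list.

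Gene bodies held a site in 45 members, whereas 77.1% of coding genes had one. The median was 5 sites, against 2 for coding genes, and 3 for members when only sites of at least 619 bp, the median width of the list, were counted. Members were also longer, at a median of 53400 bp against 17425 bp. The most were in Ltbp1 with 48 (chr17:75005568-75392512), the BMP receptor Bmpr1b with 38 (chr3:141837136-142169425), and Tgfbr3 (chr5:107106570-107289629) and Smad3 (chr9:63646767-63757994) with 23 each. To allow for length, sites in the body beyond the windows of 1 kb at the gene's own starts were counted per 10 kb and ranked among the 14164 coding genes of at least 10 kb. The 38 members of this length had a median percentile of 79.6, and 27 lay above the 50th. All 38 had a promoter site, against 11562 of the 14164 coding genes, and the ranking was not matched for this. Of the 328 body sites beyond the windows in all members, 14 (4.27%) had their middle in an exon, a share not computed for coding genes. In members 52.6% of sites were in the 5′ part of the gene up to its midpoint, against 48.5% in coding genes.

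**Figure D3:**
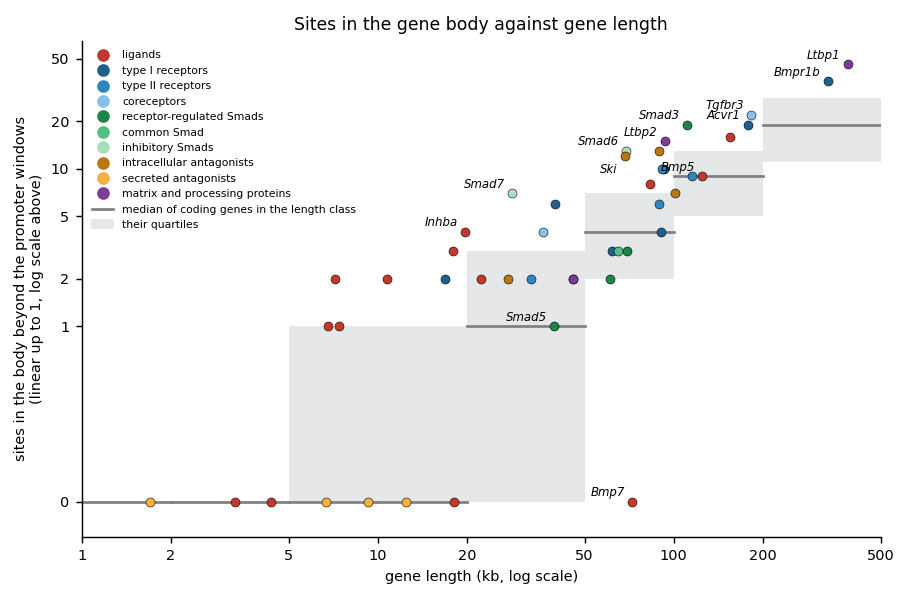
Number of sites in the body beyond the promoter windows against gene length in kb (log axis) for each of the 46 genes, coloured by role, over the median (grey line) and quartiles (grey area) of coding genes in 8 length classes. Between 50 and 100 kb the members had a median of 7 against 4. The points of Smad3, Smad6, Smad7, Ski and Ltbp1 lie above the quartiles, while Bmp7 lies at 0. Further members also lie above them, among these the receptor and coreceptor genes Acvr1, Bmpr1a, Bmpr1b and Tgfbr3, and Ltbp2.

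The Smads divided in this measure. The inhibitory Smads held 7 sites in Smad7, or 2.46 per 10 kb (percentile 99.5), and 13 in Smad6, or 1.88 per 10 kb (97.7). Smad3 held 19, or 1.71 per 10 kb (96.3). In contrast, Smad5 held 1, Smad1 and Smad9 2 each, and Smad2 and Smad4 3 each, all under 0.5 per 10 kb and between the percentiles 32.5 and 45.6. Both Smad6 and Smad7 are known as feedback inhibitors whose transcription the pathway itself induces. The widest body site of any member, 2721 bp, was in Smad6, and sites of 1906 and 1836 bp were in Smad7 and Smad3.

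**Figure D4:**
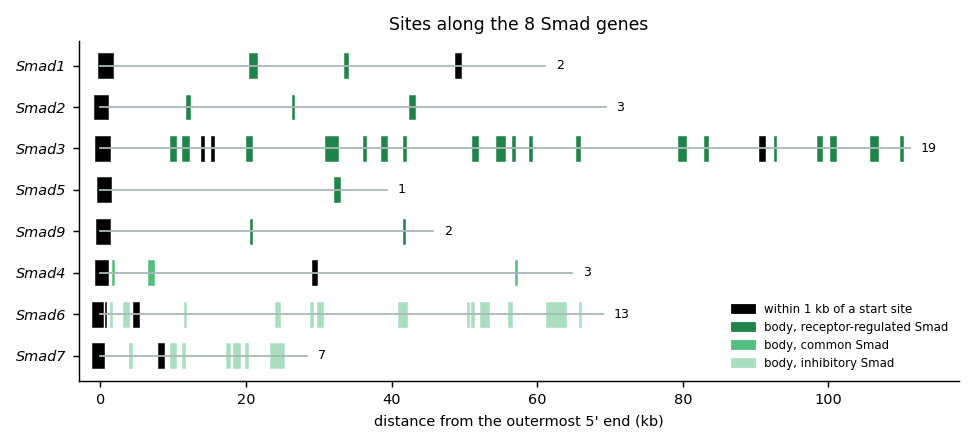
Sites along the 8 Smad genes, drawn to scale in kb from the outermost 5′ end, black where a site lies within 1 kb of a start site and coloured elsewhere. The number at the right end of each line is the count of coloured sites, which is 19, 13 and 7 for Smad3, Smad6 and Smad7 and 1 to 3 for the others.

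Receptors had many sites in their bodies, 11 of 13 lying above the 50th percentile. Acvr1b reached 1.51 per 10 kb (percentile 93.7), Tgfbr3 1.2, Acvrl1 1.19, Eng 1.11, Tgfbr2 1.10, Bmpr1a and Bmpr1b 1.08 each and Acvr1 1.06. Lower values were found at Bmpr2 (0.778), Acvr2a (0.673) and Acvr2b (0.608). The exceptions under the 50th percentile were Tgfbr1 with 3 sites in 61710 bp and Acvr1c, the nodal receptor ALK7, with 4 in 90443 bp. Acvr1b and Acvrl1 are neighbours and shared 10 of the sites within 50 kb. Both lie on chromosome 15, which had 96.4 sites per Mb, the highest density of any chromosome, followed by 82 on chromosome 10. The percentiles were not adjusted for the density of the chromosome. Acvr1 and Acvr1c shared 2.

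Ligands ranged from 0 to 16 body sites beyond the promoter. Bmp6 held 16, Bmp5 9, Tgfb2 8, Inhba 4, Gdf6 3, Tgfb3, Bmp2 and Bmp4 2 each, and Inhbb and Nodal 1 each. Per 10 kb, Inhba (2.02, percentile 98.4), Bmp2 (1.86, 97.6) and Gdf6 (1.67, 95.9) ranked high, but on few sites. When only sites of at least 619 bp were counted, their percentiles were 78.5, 0 and 81.5. No site beyond the promoter was found in Tgfb1, Bmp7, Gdf5 and Inha. Of all coding genes 10368 of 21938 had none, and of those of at least 10 kb 3832 of 14164. Bmp7 thereby had a stretch of 72066 bp without a site.

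All 4 secreted antagonists, Nog, Chrd, Grem1 and Fst, also lacked body sites beyond the promoter, and these are short genes of 1695 to 12483 bp. The intracellular antagonists held 13 in Smurf1 (1.46 per 10 kb), 12 in Ski (1.75, percentile 96.8), 7 in Smurf2 (0.696) and 2 in Skil (0.727). Of the ligand-storing genes, Ltbp2 with 15 sites reached 1.61 per 10 kb (95.1) and Ltbp1 with 46 reached 1.19. Bmp1 held 2 in 45677 bp.

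In total 8 of the 38 members ranked at or above the percentile of 95. By the bases that sites covered instead of their number, 6 of the 8 did, without Bmp2 and Gdf6, and with sites of at least 619 bp only Smad3, Smad7 and Ski of the 8 did.

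The surroundings were described by all sites within 50 kb of the gene, the body included. Each member had at least 1, against 90.8% of coding genes, and the median was 16.5 against 12. Because the body is included, longer genes have more room for sites. Among genes of at least 50 kb the median was 24 for members against 17, and among those of at least 10 kb 18.5 against 13. The most were at Ltbp1 (61), Bmpr1b (45) and Ltbp2 (36, chr12:84783212-84876532), followed by Smad3 with 35. The fewest were at Bmp7 with 3, Bmp2 and Nog with 4 each, and Acvr1c with 6. Outside the gene and its promoter windows, Acvr1c had 0 sites, Bmp2 1, Bmp7 2 and Nog 3. By role the median was 13.5 for ligands, 21 for receptors, 13.5 for Smads, 16.5 for antagonists including Smad6 and Smad7, and 36 for matrix and processing proteins. In the same order the median gene lengths were 18025, 90443, 62948, 27964 and 93321 bp, for which these counts are not adjusted. Of the 854 sites, 455 (53.3%) lay outside the members, of which 70 (15.4%) were within 1 kb of another coding start, 128 (28.1%) in the body of another coding gene and 257 (56.5%) in neither. Nearness does not assign these sites to a gene.

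The letters of transcription factor motifs were counted in the 399 sites at starts or in bodies of the members and compared with the 153682 sites on chromosomes. The palindrome GTCTAGAC occurred in 5 (1.25%) against 0.756%. Besides the sites printed for Smad6, Smad3, Eng and Bmpr1b, it occurred in the Smad7 promoter site (chr18:75366309-75368067), 353 bp upstream of the 5′ end. Thus 3 of the 5 were in Smad genes, and both inhibitory Smads had it in the promoter site. The sites holding it were chr9:64021702-64023271 for Smad6, chr9:63651245-63652320 for Smad3, chr2:32653451-32654908 for Eng and chr3:141857033-141857468 for Bmpr1b. The BMP-responsive letters occurred in 2 (0.501%) against 0.069%, both at antagonists, Skil and Grem1. Both lay in promoter sites, where the letters were in 2 of 71 (2.82%) against 0.325% of coding promoter sites. The palindrome was in 2 of 71 (2.82%) against 1.07% at starts, and in 3 of 328 (0.915%) against 0.706% in bodies. These counts are small, and a match of letters does not show binding.

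AP-1 factors (Jun and Fos) and TEAD factors bind many accessible sites of fibroblasts. The AP-1 letters TGAGTCA, either strand, occurred in 108 of the 399 sites (27.1%) against 29.4%, and the TEAD letters CATTCCA, either strand, in 57 (14.3%) against 15.7%. At starts the AP-1 share was 15.5% (11 of 71) against 20.2% of coding promoter sites, and in bodies beyond the starts 29.6% (97 of 328) against 30.5%. TEAD letters were in 22.5% (16 of 71) of start sites against 14.8% and in 12.5% of body sites against 15.5%. In the middle 200 bp of start sites the order was the reverse, 0 of 71 against 2.44%, and per Mb of start sites the matches were closer, 165 against 141. The shares of members thus lay near those of coding genes in bodies.

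**Figure D5:**
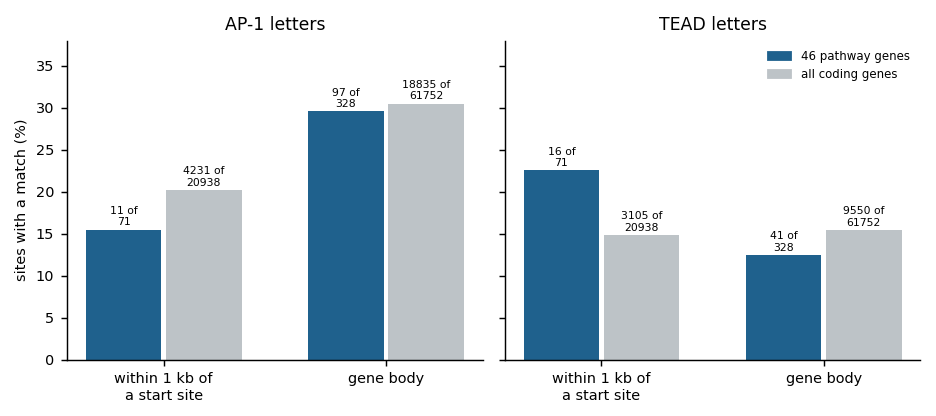
Percent of sites holding the AP-1 letters (left) or the TEAD letters (right) on either strand, for sites within 1 kb of start sites and for other sites in gene bodies, in the 46 pathway genes (blue) and all coding genes (grey), with counts above the bars. AP-1 letters were more frequent in bodies than at starts in both sets, 29.6% against 15.5% in the pathway genes.

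By role, AP-1 letters were found in 32% of receptor sites (49 of 153), 28.4% of matrix and processing sites, 25.8% of Smad sites and 21.2% of ligand sites. They were in 15.3% of antagonist sites (11 of 72, Smad6 and Smad7 included). The letters were rarer at starts than in bodies, and the secreted antagonists had promoter sites only. Shares by role were not split into starts and bodies, so their order may reflect this mix, which was not tested. Ltbp1 (16 sites), Bmpr1b (11) and Smad3 (9) together held 36 of the 108. None of the 16 sites of Smad6 had them, whereas 9 of 23 in Smad3 and 7 of 12 in Bmpr1a did. At least 1 site with AP-1 letters was found in 25 members and with TEAD letters in 28. The same share was not computed for all coding genes, and members held from 1 to 48 sites, so these counts allow no comparison.

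As many as 3 matches in 1 site, the highest number in any member, were found in Smurf1, Bmpr1a and Ltbp1. The stretch with all matches in Smurf1, which belongs to its alternative-start site, and those with 2 of the matches in the introns of Bmpr1a and Ltbp1 are shown, written as above with the AP-1 letters or their reverse complement TGACTCA in capitals.
Smurf1, chr5:144898553-144898783, minus strand: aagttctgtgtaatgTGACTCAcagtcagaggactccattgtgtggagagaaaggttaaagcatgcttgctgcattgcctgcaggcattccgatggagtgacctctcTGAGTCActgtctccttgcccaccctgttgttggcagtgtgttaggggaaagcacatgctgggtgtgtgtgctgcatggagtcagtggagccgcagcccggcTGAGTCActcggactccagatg
Bmpr1a, chr14:34468031-34468202, minus strand: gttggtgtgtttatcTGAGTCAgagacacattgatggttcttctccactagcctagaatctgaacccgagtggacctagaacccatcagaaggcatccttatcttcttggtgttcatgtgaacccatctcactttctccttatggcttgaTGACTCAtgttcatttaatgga
Ltbp1, chr17:75081114-75081254, plus strand: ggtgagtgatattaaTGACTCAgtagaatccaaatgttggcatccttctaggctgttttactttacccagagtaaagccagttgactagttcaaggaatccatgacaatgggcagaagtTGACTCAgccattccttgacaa

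The matches of Smurf1 lay 67079, 67171 and 67273 bp downstream of the outermost 5′ end, within a site of 1267 bp. Those of Bmpr1a lay at 35154, 35289 and 35661 bp in a site of 719 bp, and those of Ltbp1 at 75561, 75665 and 76370 bp in a site of 1213 bp.

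Other genes of the pathway were taken from lists of 74 genes, of which 64 had a promoter site, beside 70.8% of all coding genes (95.8% with an island and 36.3% without). Of the 19 other ligands 13 (68.4%) had one, near the share of all coding genes, and Bmp10, Bmp15, Gdf2, Gdf3, Inhbc and Lefty1 had none. Several of these are made in heart, oocyte, liver or early embryo, but a link between tissue and the lack of a site was not tested. Over the 13 other ligands with a site the median widest one was 943 bp, compared with 1441 bp in the listed ligands. Of the other ligands 10 of 19 had an island, against 11 of 14. Of the 6 other receptors and coreceptors 5 had a site, Hjv being without, and of 12 other secreted antagonists 10, without Cer1 and Sost.

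All 11 other regulators of latent ligands had a promoter site, among them Fbn1 with 2386 bp and 28 body sites, the integrin genes Itgav with 1981 bp and Itgb8 with 2539 bp, and the proprotein convertase gene Furin with 2440 bp. The narrowest were 662 bp at a further integrin gene, Itgb6, which had no island, and 815 bp at Nrros. Of 8 nuclear partners of Smads 7 had a promoter site, without Foxh1. Target genes known from the textbooks had one at 18 of 18, although only 11 had an island, and Col1a1, Col1a2 and Fn1 were also among the fibroblast markers. The 7 without an island included Acta2 (2180 bp), Tagln (2010 bp), Col1a2 (2696 bp as the widest of 6 sites) and Tnc (1552 bp). The Id genes, targets of the BMP branch, had 1036 bp at Id3 to 2336 bp at Id4.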

How the data were processed

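Immortalized mouse embryo fibroblasts were profiled by ATAC-seq in 10 libraries, 2 per group. According to the methods and processing notes, the authors trimmed with Trim Galore, mapped to mm10 using BWA, filtered with SAMtools, called peaks with MACS2, merged replicates, and used deepTools and DESeq2 further downstream. Versions, peak threshold, Tn5 shift and joining of sites are not given in the sources used here, and each can change the number, edges and width of sites. The deposited list used here holds only the chromosome, start and end of each of the authors' 153924 sites, a score or count being absent. Total counts per library are unknown.

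Positions were read as counted from 0 and are printed from 1, since the smallest step between sites was 1 bp and 0 overlapped. Start sites came from GENCODE vM21 (all transcripts). CpG islands were computed outside repeats (at least 200 bp, GC above 0.5, observed to expected CpG above 0.6). An overlap of 1 bp sufficed. The 242 sites on other sequences were left out. No test was run, because the list has no value per library, and the share of coding genes is given for comparison. All 46 members are named, and coordinates are given for the widest promoter sites, the genes with most sites and the sites with a Smad palindrome. Genes of the other lists are named where they had no promoter site, 1 marker list is not reported here, and the further examples were chosen after their values were seen, as were coordinates for Gdf5. The members and lists were chosen with earlier results of these data known. Counting and motif search were tested on simulated data. Python 3.11.15, NumPy 2.4.6, Numba 0.67.0, SciPy 1.17.1 and Matplotlib 3.10.9 were used.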

Additional observations from a re-analysis of the deposited data

How the results depend on the processing

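No paired analysis was possible because the pooled list holds no value per library, and for the same reason no library could be left out. Of 36 alternative values, 29 stayed within 1.5 times the count or within the 95% interval of the share or median, and 7 moved. Reversal was not scored. Many of the alternatives were counts of members with a promoter site, which a window of 3 kb or merging cannot lower. The number of members with a promoter site was 42 to 46 under windows of 500 bp and 3 kb, the outermost 5′ end only, wide sites of at least 619 bp (45, without Gdf5), merged neighbours and covered starts. With RefSeq starts, an alternative chosen after seeing the data like covered starts and both other density measures, it was 30 of 32, without Bmp4 and Eng. Stricter islands were found at 35 members. The median number of sites around members moved from 16.5 to 9 with 20 kb, 26 with 100 kb and 9.5 with wide sites, as their construction implies. In the middle 200 bp of sites, shares fell to 0.501% for the Smad palindrome, 0% for the BMP element (0 of 399), 12% for AP-1 and 2.76% for TEAD, fewer bases being searched. The median percentile of body sites was 79.6, 66.1 with wide sites and 71.2 by covered bases. Unknown depth limits every absence: a gene without a listed site may still be accessible below the threshold of the peak caller.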
